A study of Mus musculus with 36 samples.

Results

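Cortical and striatal identity genes were followed as a panel of 8 genes: *Tbr1*, *Neurod6*, *Emx1*, *Bcl11b*, *Ppp1r1b*, *Drd1*, *Drd2* and *Camk2a*. The genes were found by symbol in the 1 month counts and matched at the other ages by gene identifier, since *Drd1* carries another name at 3 months. They are 8 of the 55450 genes annotated at 1 month, and all 8 passed the filter on low counts at 1, 2 and 3 months, *Emx1* and, at 2 months, *Drd1* through their F/M libraries alone. The libraries came from the forebrain/midbrain (F/M) and the cerebellum (Cb) of mice of 1, 2 and 3 months, with 3 control and 3 *Tpp1*-/- mice per age and region, which made 12 groups and 36 libraries. *Tpp1*-/- mice model CLN2 disease, the late infantile form of Batten disease, and lack the lysosomal protease TPP1 in the whole animal because the gene was disrupted by targeting. The comparison of *Tpp1*-/- with control mice asked how the transcriptome of each region changes with the course of the disease.

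Controls were wild-type for *Tpp1*, except that control replicate 3 of 1 month was labelled *Tpp1*+/- in both regions. At 1 month replicate 1 of each group was labelled female and the others male, at 2 months all mice were male, and at 3 months replicate 3 was female and the others male. F/M was sampled as one piece that holds cortex, hippocampus, striatum, thalamus and midbrain together, so that fewer cells of a type and less RNA per cell cannot be told apart in the values given here.

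Projection neurons of the cerebral cortex are glutamatergic and are specified by transcription factors of the dorsal telencephalon, while those of the striatum are GABAergic and respond to dopamine. EMX1 is a homeodomain factor of the dorsal telencephalon. TBR1 is a T-box factor of deep-layer cortical neurons, and NEUROD6 is a basic helix-loop-helix factor of differentiated cortical and hippocampal neurons. BCL11B, also called CTIP2, is a zinc finger factor of subcerebral projection neurons of the cortex and of striatal projection neurons. DARPP-32, the product of *Ppp1r1b*, inhibits protein phosphatase 1 downstream of dopamine receptors. The D1 receptor (*Drd1*) marks striatal neurons of the direct pathway and the D2 receptor (*Drd2*) those of the indirect pathway, and *Drd2* is also expressed by dopamine neurons of the midbrain. *Camk2a* encodes the alpha subunit of CaMKII, a synaptic kinase that is abundant in forebrain excitatory neurons.

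The stretches before the RefSeq starts of *Drd2* and *Neurod6*, 250 bases each, are shown because these genes carried the largest log2 fold changes between genotypes among the members that passed the adjusted p in those comparisons, *Drd2* in Cb and *Neurod6* in F/M. The *Drd2* stretch lies at chr9:49340153-49340402 on the plus strand and the *Neurod6* stretch at chr6:55681264-55681513 on the minus strand, both from RefSeq on GRCm38.p6 and written 5′ to 3′. Capitals mark matches to short motifs searched on both strands, namely the E-box CAGATG, the T-box core AGGTGT, the homeodomain core TAATTA, the GC box GGGCGG and the TATA box TATAAA.
Drd2: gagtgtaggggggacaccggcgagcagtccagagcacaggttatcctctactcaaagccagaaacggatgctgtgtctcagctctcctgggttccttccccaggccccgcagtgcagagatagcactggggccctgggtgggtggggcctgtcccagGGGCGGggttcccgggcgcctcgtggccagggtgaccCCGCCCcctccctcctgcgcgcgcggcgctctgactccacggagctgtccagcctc
Neurod6: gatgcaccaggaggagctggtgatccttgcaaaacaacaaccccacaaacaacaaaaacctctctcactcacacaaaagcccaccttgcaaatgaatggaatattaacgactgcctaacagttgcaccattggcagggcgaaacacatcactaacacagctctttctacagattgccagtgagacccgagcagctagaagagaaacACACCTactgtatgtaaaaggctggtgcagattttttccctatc
The *Drd2* stretch held the GC box at -93 and, on the other strand, at -56 from the RefSeq start, and the *Neurod6* stretch held the T-box core once, on the other strand at -44. Of all 32851 RefSeq windows of 300 bases, 35.7% held the GC box and 13.7% the T-box core. Windows were at hand for 6 of the 8 members, and none of these held CAGATG, which 17.2% of all windows hold. The *Tbr1* window held the homeodomain core 2 times, which 5.29% of all windows hold. The *Drd2* window was 70.3% G and C and the *Neurod6* window 46.3%, against a median of 52.7% over all windows. These matches describe letters and not bound sites.

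*Drd2* lies on chromosome 9 from 49340627 to 49408177 and *Neurod6* on chromosome 6 from 55677822 to 55681263 (GRCm38, GENCODE). *Bcl11b* lies on chromosome 12 from 107910403 to 108003602, and *Tbr1* on chromosome 2 from 61802930 to 61814114. *Ppp1r1b*, on chromosome 11 from 98348404 to 98357796, shares 460 of its 2928 exon bases with a non-coding gene on the opposite strand, and the strand setting of the counting differed at 2 months from the other ages. *Drd1* lies on chromosome 13 from 54051183 to 54055705 and *Emx1* on chromosome 6 from 85187438 to 85204462.

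The libraries held between 10609896 and 29942380 counted reads, with a median of 21049839. *Tpp1* lay between 40.4 and 113 CPM (read counts scaled to a library total of 1e6) in controls and between 15.6 and 28.2 in *Tpp1*-/- mice, so that no library went against its genotype label. The granule cell gene *Gabra6* had 702 to 1056 CPM in Cb and 0.0485 to 2.88 CPM in F/M, so that none went against its region label. Levels are CPM scaled by the TMM method within an age, with the SD of 3 mice, and a gene was called where edgeR's quasi-likelihood test had an adjusted p below 0.1 together with a change of 1.5-fold or more. Since nothing in the labels says more about how the mice of a group were related, p-values measure the spread between these libraries.

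In F/M the 8 members covered a wide span of levels. Per kilobase of exon, *Camk2a* had a median of 363 CPM per kb over the 18 libraries (333 to 436). *Ppp1r1b* followed with 81.3 (68.3 to 98.5) and *Neurod6* with 35.1 (25.8 to 42.6), and these 3 ranges did not overlap. *Tbr1* at 19.6 (15.7 to 22.8) and *Bcl11b* at 16 (13.1 to 18.3) came next, with overlapping ranges. The receptors lay side by side, *Drd2* at 12.8 (9.13 to 17.1) and *Drd1* at 12.5 (10.4 to 14.7), and their ratio per kb was 0.805 to 1.36 in the 18 libraries. *Emx1* was below all others at 3.91 (3.15 to 5.95).

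None of the 8 members was called in F/M between *Tpp1*-/- and control mice at 1, 2 or 3 months. Over all tested genes 0.0112% were called at 1 month, 0.737% at 2 months and 0.464% at 3 months. DESeq2 and limma-voom called 0 of the 8 as well, and edgeR gave an unadjusted p under 0.05 for 0, 2 and 0 members by age, and for 1.89%, 16.9% and 5.94% of all genes. The 2 members were *Neurod6* and *Tbr1*, both of the glutamatergic neurons of the cortex and both lower in *Tpp1*-/- mice.

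*Neurod6* in F/M at 2 months had 84.4, 73.4 and 81.1 CPM in controls and 55.4, 63.5 and 60.3 CPM in *Tpp1*-/- mice. Every *Tpp1*-/- library was below every control. The log2 fold change was -0.42 ± 0.07 (SE), a fold of 0.749 with a 95% confidence interval of 0.675 to 0.831 (adjusted p = 0.0108, edgeR). It passed the adjusted p but not the fold minimum. With no fold minimum 0.905% of all genes were lower, and *Neurod6* was the single member among them. Leaving out 1 library at a time kept the log2 fold change within -0.48 to -0.37 and the adjusted p within 0.00269 to 0.0974.

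At 1 month *Neurod6* overlapped between genotypes in F/M, at 74.2 ± 2.03 CPM in controls and 79.6 ± 10.8 in *Tpp1*-/- mice (SD, n = 3). It overlapped again at 3 months, at 79.1 ± 1.26 and 73.6 ± 7.42 CPM. The genotype difference changed by -0.52 ± 0.12 on the log2 scale from 1 to 2 months (adjusted p = 0.27) and by 0.32 ± 0.12 from 2 to 3 months (adjusted p = 0.431, edgeR). Neither change passed in edgeR, while DESeq2 and the edgeR fit with no filter on low counts called the change from 1 to 2 months (adjusted p = 0.0604 and 0.073), so that this call depends on the fit.

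*Tbr1* in F/M at 2 months had 119, 117 and 125 CPM in controls and 86, 113 and 103 CPM in *Tpp1*-/- mice. The groups did not overlap, and *Tpp1*-/- replicate 1 was lowest. The log2 fold change was -0.26 ± 0.08 (adjusted p = 0.12, edgeR). It was -0.16 without that replicate (adjusted p = 0.442) and -0.36 without *Tpp1*-/- replicate 2 (adjusted p = 0.0269). Over 8 other fits by edgeR, DESeq2 or limma-voom it ran from -0.27 to -0.26, with an adjusted p of 0.0242 to 0.292. At 1 month the *Tbr1* means were 108 ± 4.69 and 105 ± 8.13 CPM and at 3 months 112 ± 10.02 and 104 ± 3.38, control first, with overlap at both ages.

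**Figure D1:**
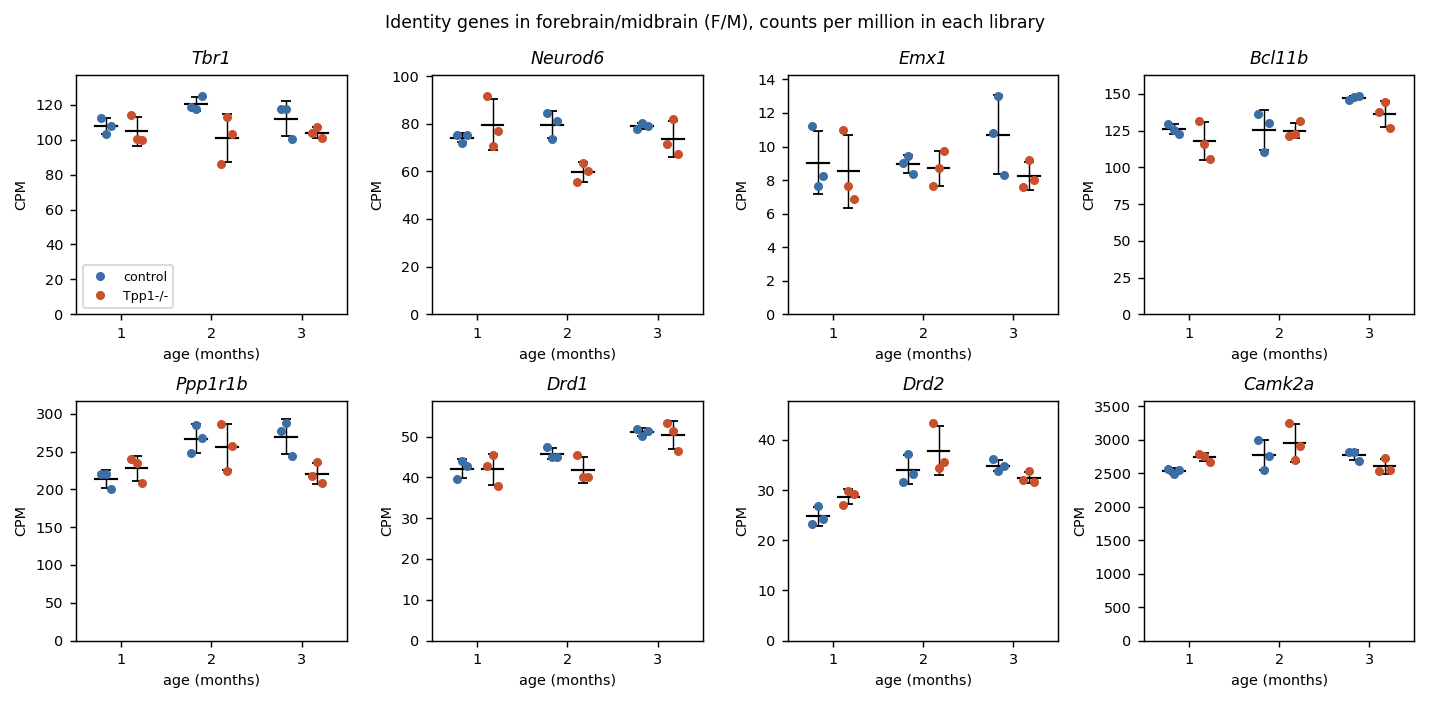
Levels of the 8 identity genes in the 18 F/M libraries: the x axis is age in months, the y axis CPM from 0, points are single libraries, and bars are the mean and SD of 3 mice. At 2 months the *Neurod6* and *Tbr1* points of *Tpp1*-/- mice all lie below the control points, while those of the other 6 genes overlap.

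*Emx1* in F/M had 9.03, 9.47 and 8.38 CPM in controls of 2 months and 7.62, 8.71 and 9.76 in *Tpp1*-/- mice, which overlapped. At 3 months it had 10.7 ± 2.36 and 8.26 ± 0.841 CPM, also with overlap (adjusted p = 0.915, edgeR). *Bcl11b* had nearly the same mean in both genotypes at 2 months, 125 ± 13.5 and 125 ± 5.4 CPM, with a 95% interval of the log2 fold change of -0.18 to 0.17. At 3 months the *Bcl11b* values of *Tpp1*-/- mice (138, 145 and 127) lay below those of controls (146, 148 and 148) without overlap, at a log2 fold change of -0.11 ± 0.11.

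The dopamine-responsive genes of striatal neurons showed no called difference in F/M. *Ppp1r1b* had 248, 286 and 268 CPM in controls of 2 months and 286, 225 and 257 in *Tpp1*-/- mice. At 3 months *Ppp1r1b* had 277, 288 and 244 CPM in controls and 217, 236 and 209 in *Tpp1*-/- mice, which did not overlap, with a log2 fold change of -0.29 ± 0.14 (adjusted p = 0.848, edgeR). *Drd1* had 45.8 ± 1.34 and 41.9 ± 3.18 CPM at 2 months and 51.1 ± 0.938 and 50.4 ± 3.52 at 3 months, control first, with overlap at both ages.

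*Drd2* in F/M was 23.2, 26.8 and 24.2 CPM in controls and 27, 29.9 and 29.2 in *Tpp1*-/- mice at 1 month, without overlap. At 2 months it was 31.6, 37.2 and 33.3 against 43.4, 34.4 and 35.7 CPM. The highest value came from *Tpp1*-/- replicate 1, the library that was also lowest in *Tbr1* and *Neurod6*. At 3 months *Drd2* had 34.9 ± 1.19 and 32.5 ± 1.14 CPM. The adjusted p (edgeR) was 1, 0.469 and 1 at the 3 ages.

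*Camk2a* had 2996, 2554 and 2759.7 CPM in the F/M controls of 2 months and 3258, 2699 and 2902 in *Tpp1*-/- mice, which overlapped. At 1 month the groups did not overlap, at 2534 ± 42.5 and 2739 ± 58.9 CPM, with a log2 fold change of 0.11 ± 0.09. At 3 months the means were 2772 ± 80.3 and 2603 ± 106 CPM. At each age 2 of the 8 members did not overlap between genotypes in F/M, counted over both directions. *Drd2* and *Camk2a* were so placed at 1 month, as were 8.31% of all genes in the higher direction. For *Neurod6* and *Tbr1* at 2 months the share of all genes in the lower direction was 8.84%, and for *Bcl11b* and *Ppp1r1b* at 3 months it was 12.3%. These shares count only the direction in which the members lay. The share over both directions is larger and is not given here.

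**Figure D2:**
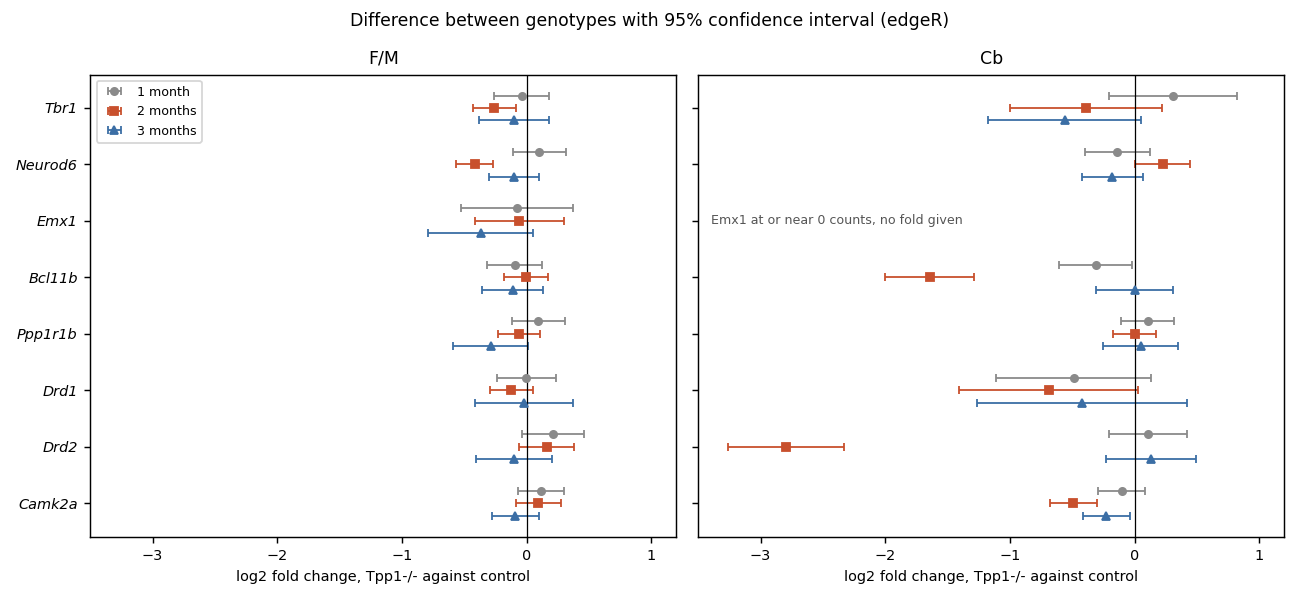
Difference between *Tpp1*-/- and control mice for each identity gene in F/M and in Cb: the x axis is the log2 fold change, symbols are ages, and bars are 95% confidence intervals from edgeR with 3 mice per group. In F/M the estimates run from -0.42 to 0.21, and in Cb *Drd2* (-2.80) and *Bcl11b* (-1.64) at 2 months stand apart, while *Emx1* in Cb, with 0 to 6 reads, is not drawn.

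Further genes of cortical glutamatergic neurons, 25 in all, were read beside the members. In F/M at 2 months 0 were called in either direction by edgeR, and 10 had an unadjusted p under 0.05, as 16.9% of all genes had. The median log2 fold change was -0.15, against 0.00388 over all genes. The difference was largest, among the genes named here, for the upper-layer gene *Lamp5*, with 157 CPM in controls and 119 in *Tpp1*-/- mice (adjusted p = 0.29). *Nrn1* had 225 and 184 CPM (adjusted p = 0.118) and the layer 5 factor *Fezf2* 27 and 22.5 CPM (adjusted p = 0.33), control first. The summed level of the list was 3609 to 3851 CPM in controls and 3100.3 to 3535 CPM in *Tpp1*-/- mice.

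Of 24 measured genes of striatal projection neurons, 0 were called in F/M at 2 months, and the median log2 fold change was -0.01. An unadjusted p under 0.05 was found for 4 of the 24 and for a similar share of all genes, 16.9%. Of these 24 genes 15 had a negative and 9 a positive value. The largest values, none of them called, were those of the factors *Isl1* (4.3 and 6.1 CPM, control first, adjusted p = 0.152), *Sp9* (5.16 and 7.27 CPM, adjusted p = 0.228) and *Six3* (12.6 and 17.2 CPM, adjusted p = 0.103). Of 11 hippocampal genes 1 was called higher, the zinc finger factor *Zbtb20*, with 115 CPM in controls and 173 in *Tpp1*-/- mice (log2 fold change 0.59 ± 0.15, adjusted p = 0.0645). Over all genes 0.737% were called in either direction.

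Markers of other cells were read in the same F/M libraries of 2 months. The summed level of 8 astrocyte genes was 3905 to 5073 CPM in controls and 5299 to 6654 CPM in *Tpp1*-/- mice, with 0 called and 7 at an unadjusted p under 0.05. Of 8 oligodendrocyte, 8 microglial and 8 endothelial genes 0 were called by edgeR, with 1, 2 and 3 at an unadjusted p under 0.05. Over all genes 16.9% had an unadjusted p under 0.05. The 17 tested genes of midbrain and thalamus summed to 317 to 385 and 409 to 463 CPM, and 3 were called higher. These were *Slc6a4* and *Tph2*, the serotonin transporter and synthesis genes of the raphe, and the factor *Sox14*, each with overlapping groups. The 3 calls fell to 0 without control replicate 3 or without *Tpp1*-/- replicate 3, and DESeq2 and limma-voom made 1 of them each. Choroid plexus genes summed to 579 to 1130.4 and 990.4 to 1388 CPM, with 7 of 12 called higher, and cerebellar neuron genes to 632 to 825 and 768 to 838 CPM, with 3 of 14 called higher. Over all genes 0.737% were called in either direction. The part of these levels in the lower *Neurod6* and *Tbr1* values was not tested.

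All 8 members were called higher in F/M when the 2 regions of control mice were compared at each age, as were 21.1%, 21.9% and 19.9% of all genes at 1, 2 and 3 months. The direction follows from the choice of the members as forebrain genes. The size of the difference was very unequal. The mean Cb level of *Tbr1* in controls was 0.713%, 0.76% and 0.946% of its mean F/M level at 1, 2 and 3 months, and that of *Drd1* was 1.41%, 1.14% and 1.8%. *Bcl11b* stood at 4.61%, 4.42% and 3.5% and *Camk2a* at 5.28%, 5.35% and 5.07%.

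*Neurod6* stood higher, at 8.86%, 7.96% and 8.02% of its F/M level, and *Drd2* at 15.5%, 14.5% and 14%. *Ppp1r1b* reached 54%, 50.6% and 46.6%. *Emx1* had 0 to 6 reads per Cb library, *Drd1* 3 to 29 and *Tbr1* 11 to 34. The members thus did not share one percentage.

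**Figure D3:**
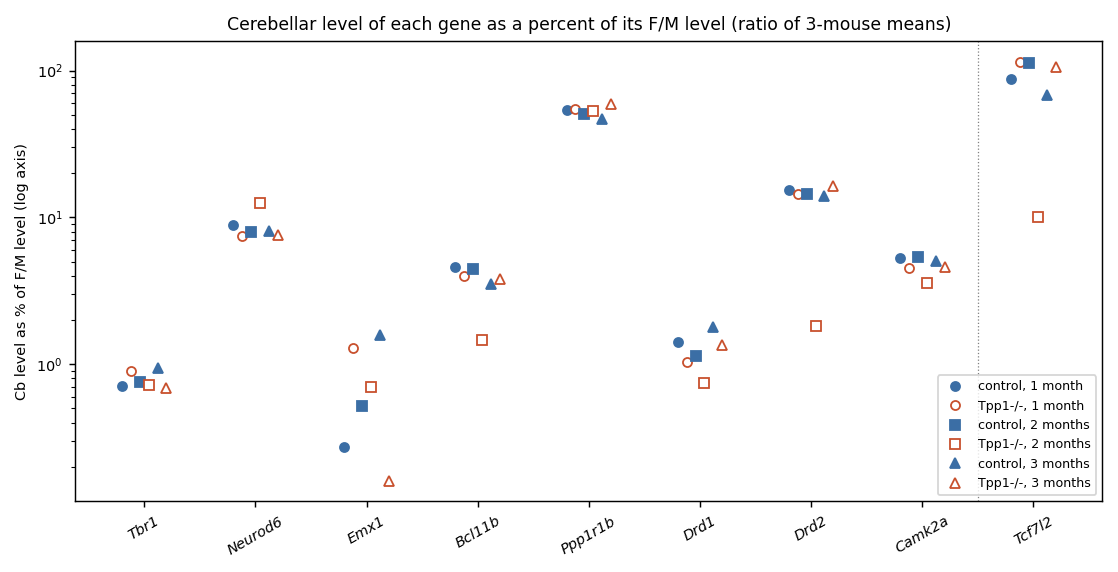
Mean Cb level as a percent of the mean F/M level, on a log axis, for the 8 identity genes and for *Tcf7l2*, by age and genotype with 3 mice per group. Apart from *Emx1*, which rests on 0 to 6 reads per Cb library, the identity genes in controls run from under 1% for *Tbr1* to 54% for *Ppp1r1b*, and the *Tpp1*-/- mice of 2 months fall to 1.82% for *Drd2*, 1.45% for *Bcl11b* and 10.04% for *Tcf7l2*.

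Per kilobase of exon the order of the members in Cb was another one than in F/M. *Ppp1r1b* was highest, at a median of 43.1 CPM per kb (37.4 to 57.3) over the 18 Cb libraries, above *Camk2a* at 17.7 (12.5 to 20.8). *Neurod6* had 2.93 (2.46 to 3.61) and *Drd2* 1.8 (0.16 to 2.82), with overlapping ranges, and *Bcl11b* had 0.646 (0.168 to 0.819). *Tbr1* at 0.15 and *Drd1* at 0.14 did not differ beyond their spread, and *Emx1* was lowest at 0.0184. The ratio of *Drd2* to *Drd1* per kb was 14 ± 3.99 in Cb controls of 2 months and 3.81 ± 2.28 in *Tpp1*-/- mice (SD, n = 3), without overlap. In the 4 groups of 1 and 3 months its means were 10.04 ± 4.44, 14 ± 3.04, 12 ± 11 and 11.2 ± 0.51, control first at each age, with *Drd1* resting on 3 to 29 reads per library.

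In Cb at 2 months *Drd2* and *Bcl11b* were called lower in *Tpp1*-/- mice, 2 of 8 members against 1.8% of all genes called lower. *Camk2a* passed the adjusted p without reaching the fold minimum. *Tbr1*, *Emx1*, *Ppp1r1b* and *Drd1* overlapped between genotypes, and *Neurod6* had slightly higher values that did not pass. DESeq2 and limma-voom each called 2 members as well, and 4 members had an unadjusted p under 0.05 in edgeR, as 9.67% of all genes had.

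*Drd2* in Cb at 2 months had 5.06, 4.52 and 5.19 CPM in controls, from 88, 100 and 104 reads. The *Tpp1*-/- mice had 0.91, 0.409 and 0.75 CPM, from 25, 9 and 12 reads. All 3 lay far below every control. The log2 fold change was -2.80 ± 0.22, a fold of 0.144 with a 95% interval of 0.104 to 0.198 (adjusted p = 1.52e-07, edgeR), and it stayed within -3.14 to -2.53 when 1 library at a time was left out.

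*Bcl11b* in the same libraries had 4.89, 5.79 and 5.94 CPM in controls and 1.78, 1.36 and 2.31 CPM in *Tpp1*-/- mice. As for *Drd2*, the groups were wide apart. The log2 fold change was -1.64 ± 0.17, a fold of 0.32 with a 95% interval of 0.25 to 0.41 (adjusted p = 4.58e-06, edgeR), and it stayed within -1.80 to -1.48 when 1 library at a time was left out.

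*Camk2a* in Cb at 2 months had 139, 155 and 150.1 CPM in controls and 93.1, 115 and 107 CPM in *Tpp1*-/- mice, without overlap (log2 fold change -0.49 ± 0.09, adjusted p = 0.00277, edgeR). With no fold minimum it was 1 of 3 members lower, where 2.72% of all genes were. *Neurod6* had 6.33, 6.28 and 6.39 CPM in controls and 6.91, 7.77 and 7.62 CPM in *Tpp1*-/- mice, also without overlap (adjusted p = 0.49). Over all genes 10.5% did not overlap in the lower direction, as did 3 members, and 7.65% in the higher, as did 1 member.

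*Ppp1r1b*, the most abundant of the striatal members in Cb, had 139.9, 131 and 135 CPM in controls and 127, 137 and 141 in *Tpp1*-/- mice, with a 95% interval of the log2 fold change of -0.17 to 0.17. *Tbr1* had 0.748, 0.949 and 1.05 CPM against 0.619, 0.681 and 0.875 (adjusted p = 0.779, edgeR). *Drd1* had 10, 13 and 8 reads in controls and 8, 10 and 3 in *Tpp1*-/- mice, and its log2 fold change of -0.69 ± 0.34 did not pass (adjusted p = 0.614). *Emx1* had 0, 2 and 1 reads in controls and 5, 0 and 0 in *Tpp1*-/- mice, too few for a fold.

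**Figure D4:**
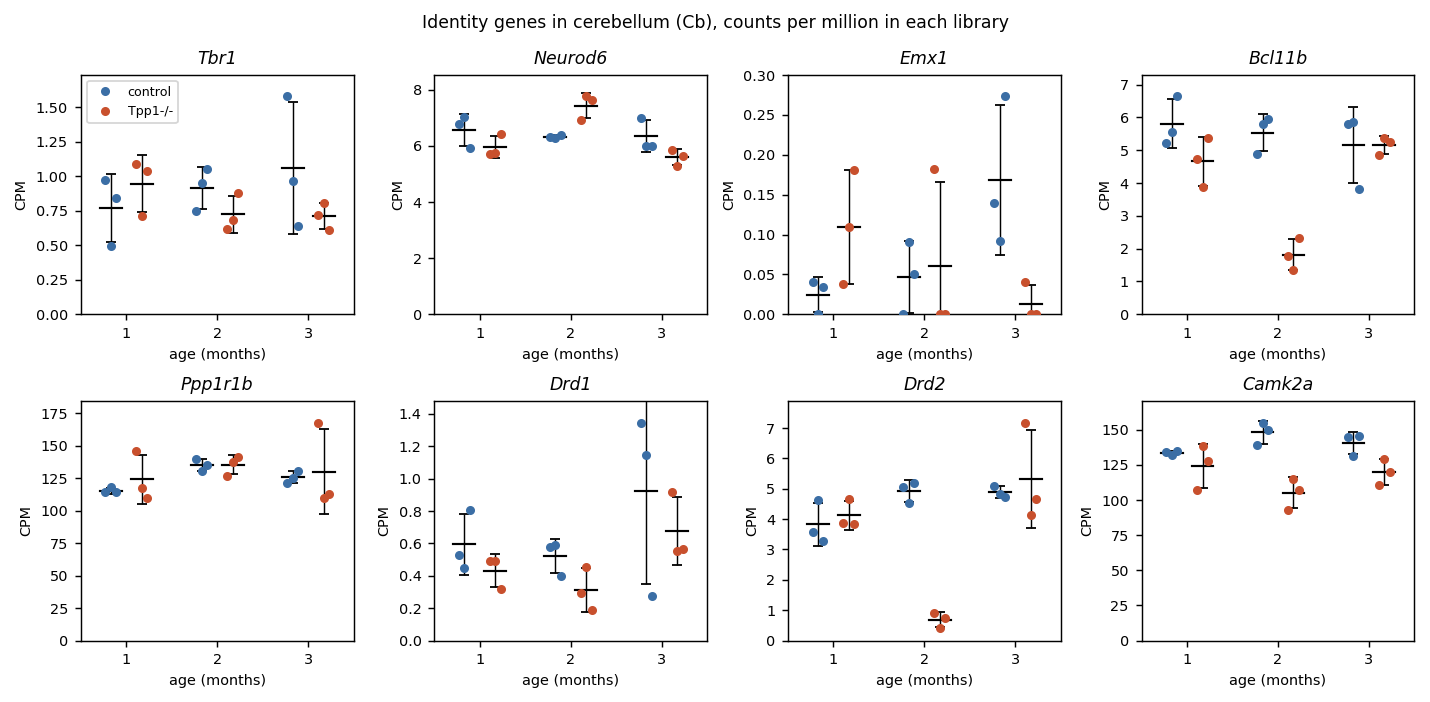
Levels of the 8 identity genes in the 18 Cb libraries: the x axis is age in months, the y axis CPM from 0, points are single libraries, and bars are the mean and SD of 3 mice. *Drd2* and *Bcl11b* are lower in the *Tpp1*-/- mice of 2 months than in all other groups, *Camk2a* is lower there by less, and *Emx1* and *Drd1* rest on few reads.

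At 1 month *Drd2* in Cb had 3.57, 4.64 and 3.29 CPM in controls and 3.87, 4.65 and 3.84 CPM in *Tpp1*-/- mice, which overlapped. At 3 months it had 5.1, 4.82 and 4.74 against 7.18, 4.15 and 4.65 CPM, again with overlap and with *Tpp1*-/- replicate 1 highest. The genotype difference of *Drd2* changed by -2.91 ± 0.28 on the log2 scale from 1 to 2 months (adjusted p = 2.96e-08) and by 2.93 ± 0.28 from 2 to 3 months (adjusted p = 1.31e-08, edgeR over 36 libraries). From 1 to 3 months it changed by 0.03 ± 0.23 (adjusted p = 0.99).

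*Bcl11b* in Cb had 5.23, 5.54 and 6.64 CPM in controls of 1 month and 4.73, 3.89 and 5.38 in *Tpp1*-/- mice. At 3 months it had 5.8, 5.87 and 3.83 against 4.87, 5.38 and 5.26 CPM, and the groups overlapped at both ages. Its genotype difference changed by -1.32 ± 0.23 from 1 to 2 months (adjusted p = 7.88e-04) and by 1.64 ± 0.23 from 2 to 3 months (adjusted p = 2.64e-05, edgeR). Thus 2 of 8 members were called in each of these changes, where 1.27% of 18322 genes were called lower from 1 to 2 months and 1.3% higher from 2 to 3 months. Both changes share the libraries of 2 months. The ages were counted with different annotations and strand settings, which apply to both genotypes of an age. No member was called from 1 to 3 months in Cb (0.458% of all genes were) or between ages in F/M (0.0218%, 0.393% and 0.153% from 1 to 2, 2 to 3 and 1 to 3 months) by edgeR. An unadjusted p under 0.05 was found from 1 to 3 months in Cb for *Tbr1* and for *Emx1*, whose 0 to 6 reads per Cb library are too few to read, where 7.91% of all genes had one. It was found for 1 member in each change in F/M, *Neurod6* from 1 to 2 and from 2 to 3 months and *Ppp1r1b* from 1 to 3 months, where 8.81%, 8.12% and 5.41% had one. DESeq2 called 1 member from 1 to 2 months in F/M, *Neurod6*, and limma-voom called 0. In the other changes in F/M and from 1 to 3 months in Cb both called 0.

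The genotype difference was also compared between the regions. At 2 months 4 of 8 members were called different between Cb and F/M, where 2.97% of all genes were. *Drd2* differed by -2.96 ± 0.25 on the log2 scale, Cb minus F/M (adjusted p = 6.87e-07, edgeR), and *Bcl11b* by -1.64 ± 0.19 (adjusted p = 2.95e-05). *Camk2a* differed by -0.59 ± 0.12 (adjusted p = 0.0146). *Neurod6* differed in the other direction, by 0.64 ± 0.13 (adjusted p = 0.00739). At 1 and 3 months edgeR called 0 of 8 members, DESeq2 and limma-voom also 0, where edgeR called 0% and 0.00581% of all genes. An unadjusted p under 0.05 was found for 0 and 1 members, the 1 being *Emx1* with its few reads in Cb, and for 1.94% and 3.51% of all genes.

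At 1 month in Cb 0 of 8 members were called by edgeR, DESeq2 or limma-voom, where 0.0112% of all genes were called by edgeR. *Bcl11b* alone had an unadjusted p under 0.05, as 7.66% of all genes had, with a log2 fold change of -0.31 ± 0.14 (adjusted p = 0.63). It was -0.19 without control replicate 3 (adjusted p = 0.947), and leaving out 1 library at a time gave -0.41 to -0.19. *Ppp1r1b* had 114, 118 and 114 CPM in controls and 146, 117 and 109.6 in *Tpp1*-/- mice, with replicate 1 above all others. *Camk2a* was lowest in that same library, at 134, 132 and 135 CPM in controls and 107, 138 and 128 in *Tpp1*-/- mice.

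At 3 months in Cb 0 of 8 were called by the same 3 tools, against 0.859% of all genes, and *Emx1* and *Camk2a* had an unadjusted p under 0.05, as 6.49% of all genes had. *Camk2a* had 145, 132 and 146 CPM in controls and 111, 129 and 119.8 in *Tpp1*-/- mice, without overlap (log2 fold change -0.23 ± 0.09, adjusted p = 0.591, edgeR). *Neurod6* had 7.01, 6.01 and 6.01 against 5.86, 5.29 and 5.63 CPM, also without overlap, and 4.2% of all genes were so placed in the lower direction. *Ppp1r1b* had 168, 109.7 and 113 CPM in *Tpp1*-/- mice, with replicate 1 again above the others, and 122, 125 and 131 in controls. *Emx1* had 3, 2 and 6 reads in controls and 1, 0 and 0 in *Tpp1*-/- mice, too few for a fold.

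Some genes of other regional lists were called lower in the Cb libraries of *Tpp1*-/- mice of 2 months. Of 17 tested midbrain and thalamus genes 6 were called lower and 0 higher, where 1.8% of all genes were called lower. The list summed to 272 to 306 CPM in controls and 190.0 to 217 CPM in *Tpp1*-/- mice. *Tcf7l2*, a factor of thalamic neurons, had 31.8, 37.7 and 35.6 CPM in controls and 3.57, 5.09 and 4.69 in *Tpp1*-/- mice (log2 fold change -3.00 ± 0.12, adjusted p = 9.50e-12, edgeR). *Slc17a6*, a vesicular glutamate transporter of subcortical neurons, had 73.9, 100.4 and 86.7 against 41.9, 22.9 and 31.1 CPM (log2 fold change -1.44 ± 0.15). The factor *Gata3* had 17, 37 and 21 reads in controls and 0, 0 and 0 in *Tpp1*-/- mice, and *Pou4f1* and *Sox14* were also called lower.

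Over all genes 1.8% were called lower in Cb at 2 months. Of 24 striatal genes 5 were called lower there and 0 higher, with a median log2 fold change of -0.42 against 0 over all genes. They were *Six3*, *Tac1*, *Pdyn*, *Rasgrp2* and *Rasd2*. The homeodomain factor *Six3* had 68, 124 and 104 reads in controls and 0, 0 and 1 in *Tpp1*-/- mice. *Tac1*, the substance P precursor gene, had 6.5, 8.73 and 8.54 CPM against 1.93, 0.136 and 1.00 (log2 fold change -2.86 ± 0.32, adjusted p = 1.27e-05, edgeR).

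Of 25 cortical genes 3 were called lower and 1 higher in Cb at 2 months, where 1.8% of all genes were called lower. The median log2 fold change of the list was -0.09, with 9 positive and 15 negative values. The LIM homeodomain factor *Lhx2* had 1.44, 1.85 and 1.8 CPM in controls and 0.291, 0.0908 and 0.375 in *Tpp1*-/- mice (adjusted p = 7.03e-06, edgeR). *Rasgrf2* had 23.6, 34.6 and 29.5 against 9.57, 4.36 and 7.12 CPM (log2 fold change -2.04 ± 0.19, adjusted p = 9.17e-07). *Mpped1* had means of 8.13 and 4.37 CPM, control first (adjusted p = 5.45e-06), and *Lamp5*, the gene called higher, 2.51 and 5.89 CPM (adjusted p = 0.0817).

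Of 11 hippocampal genes 2 were called lower and 1 higher in Cb at 2 months, where 1.8% of all genes were called lower. The median log2 fold change was 0.14, and 7 of the 11 had a positive value. *Fibcd1* had means of 2.96 and 0.84 CPM (adjusted p = 9.32e-06) and *C1ql2* 0.817 and 0.292 CPM (adjusted p = 0.0524), control first, and *Dsp*, the gene called higher, 1.74 and 3.05 CPM (adjusted p = 0.0928, edgeR).

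Choroid plexus genes summed to 1816 to 2185 CPM in Cb controls of 2 months and 2841 to 3127 CPM in *Tpp1*-/- mice, with 5 of 12 called higher. The share of all genes called higher in this comparison is not given here. Cerebellar neuron genes summed to 11642 to 11690.2 and 12072 to 13902 CPM with 0 of 14 called and 3 at an unadjusted p under 0.05, as 9.67% of all genes had. Astrocyte genes summed to 4047 to 4596 and 4167 to 4836 CPM, oligodendrocyte genes to 6716 to 7046 and 5535 to 6987 and microglial genes to 134 to 162 and 141 to 143, each with 0 of 8 called and with 0, 4 and 0 at an unadjusted p under 0.05. In F/M of 2 months *Tcf7l2* had means of 31.3 CPM in controls and 44.3 in *Tpp1*-/- mice. Of the 17 midbrain and thalamus genes 15 had a positive and 2 a negative log2 fold change in F/M. In Cb 5 had a positive and 12 a negative value. The part of the lower midbrain and thalamus genes in the *Drd2* and *Bcl11b* values was not tested. A difference between the groups in how the regions were cut apart was not tested either.

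**Figure D5:**
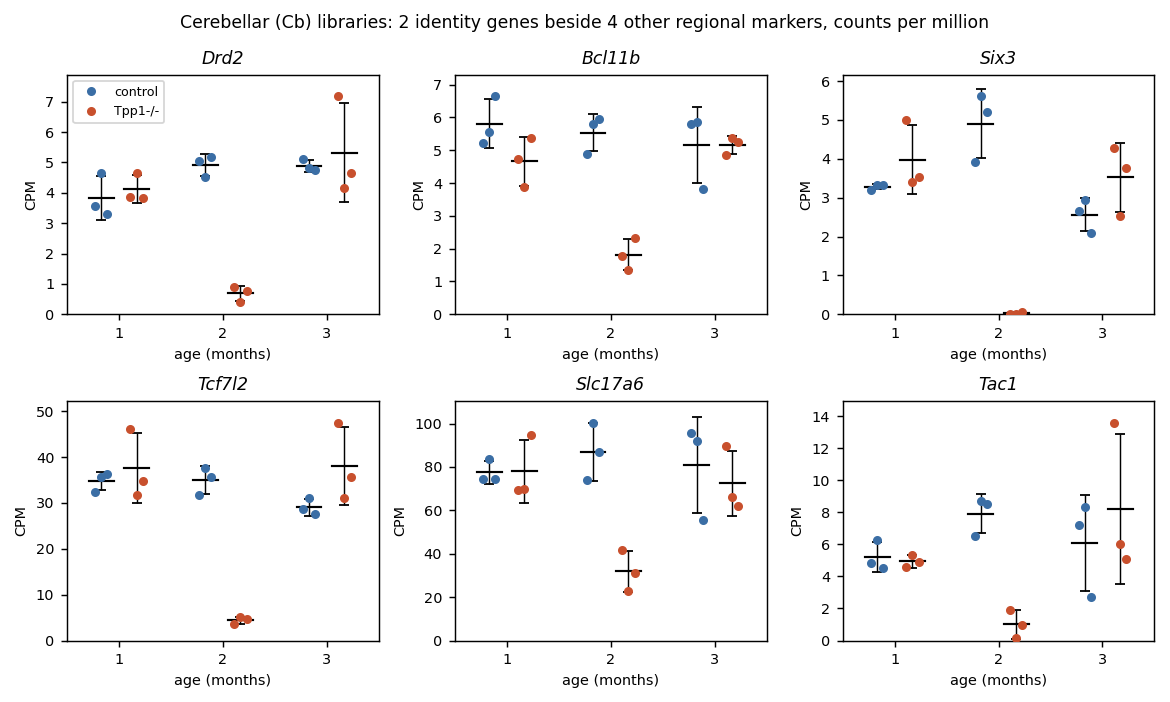
*Drd2* and *Bcl11b* in the 18 Cb libraries beside other regional genes: the x axis is age in months, the y axis CPM from 0, points are single libraries, and bars are the mean and SD of 3 mice. *Drd2*, *Bcl11b*, *Six3*, *Tcf7l2*, *Slc17a6* and *Tac1* are each lower in the *Tpp1*-/- mice of 2 months than in their controls, without overlap.

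Paralogues of the members, 14 in all, were called in F/M at no age (edgeR). An unadjusted p under 0.05 was found for 0, 0 and 1 of them, and for 1.89%, 16.9% and 5.94% of all genes. In Cb 1 of 12 tested was called lower at 2 months, *Emx2*, with 4, 20 and 9 reads in controls and 0, 2 and 0 in *Tpp1*-/- mice (adjusted p = 0.00496). *Emx2* passed the filter through its F/M libraries alone, and this call rests on few reads in Cb. *Camk2b*, the beta subunit gene of CaMKII, had means of 791 and 767 CPM in Cb at 2 months, control first (adjusted p = 0.905). The ratio of *Camk2a* to *Camk2b* per kb was 0.229 ± 0.0135 in these controls and 0.168 ± 0.0179 in *Tpp1*-/- mice, and it was 3.38 to 4.71 over the F/M libraries. *Neurod1*, a factor of cerebellar granule cells, had a median of 443 CPM in Cb and 12.8 in F/M, the reverse of *Neurod6*. *Bcl11a* and *Ppp1r1a* had adjusted p of 0.629 and 0.858 in Cb at 2 months.

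The genes with the pattern most like each member were those with the smallest root mean square difference of log2 CPM over the 36 libraries, after each gene's mean was subtracted. The difference between regions weighs most in this measure, and the libraries share depth and counting by age. *Drd2* was nearest to *Sst* (0.24), *Htr1a* (0.37) and *Rasgrf2* (0.37), where the median over all genes was 1.80. *Bcl11b* was nearest to *Enc1* (0.30), *Camkv* (0.31) and *Mpped1* (0.31), with a median of 2.49. *Neurod6* was nearest to *Mef2c* (0.19), *Rasgrp1* (0.20) and *Cacng3* (0.21) and *Camk2a* to *Stum* (0.16), *Hpcal4* (0.17) and *Rgs9* (0.23), with medians of 1.80 and 2.24.

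*Tbr1* came nearest to *Chrm1* (0.34), *C730002L08Rik* (0.41) and *Dlx6* (0.42), *Emx1* to *Gm19410* (0.40), *Rtn4rl2* (0.41) and *Kcnf1* (0.42) and *Drd1* to *Kcnj4* (0.40), *Lrrc10b* (0.41) and *Kcnf1* (0.45), with medians over all genes of 3.47, 3.01 and 3.15. *Ppp1r1b* was nearest to *Ube2ql1* (0.11), *Mgll* (0.12) and *Aplp1* (0.12), where the median was 0.60, and it differed least between the regions. With the 18 F/M libraries alone, *Neurod6* shared 1 of its nearest 3 genes with this list, *Rasgrp1*, and the other members shared 0.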

How the data were processed

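Libraries of 36 samples were analysed. Per the file headers, the authors counted reads to genes with featureCounts (1.6.3 at 1 month, 1.6.2 at 2 and 3 months) against GENCODE M21, M16 and M18, with strand settings 1, 2 and 1. The submitters' processing notes name STAR 2.5.2b. The deposited values are raw counts per gene, not normalized. They sum to between 10609896 and 29942380 per library. Named genes were matched between ages by gene identifier, and *Drd1* carries another name at 3 months. Counts were fitted with edgeR 4.0.16 (R 4.3.3; TMM, filterByExpr, quasi-likelihood test, Benjamini-Hochberg adjustment) over all genes, 12 libraries per age, and ages were compared in one fit of 36 libraries over the genes common to the 3 annotations. Differences of the genotype effect between regions, and changes of it between ages, were called at an adjusted p under 0.1 with no fold minimum. The comparison of F/M with Cb in controls kept the minimum of 1.5-fold. The fitting was tested on simulated data. Alternatives were DESeq2 1.42.0, limma-voom (limma 3.58.1), other scalings, filters and thresholds, a replicate block, a sex covariate and each library left out.

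The members and lists were chosen with earlier results of these data known. All members are named. Of each other list up to 4 genes per comparison are named, the called ones with the largest log2 fold change or else the largest changes. *Slc17a6*, *Sox14* in Cb, *Rasd2* and *Gabra6* fall outside this rule and were named after their values were seen. The paralogues *Camk2b*, *Neurod1*, *Bcl11a* and *Ppp1r1a* also fall outside it. Some genes of the lists, kept in the counts and sums, are not reported here by name. Promoter letters are from RefSeq.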

Additional observations from a re-analysis of the deposited data

Results flagged for a closer look

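The genotype difference of 4 members differed between Cb and F/M at 2 months by edgeR's interaction test. It was -2.96 for *Drd2*, -1.64 for *Bcl11b*, -0.59 for *Camk2a* and 0.64 for *Neurod6* on the log2 scale, Cb minus F/M. In Cb the genotype difference changed from 1 to 2 months by -2.91 for *Drd2* and -1.32 for *Bcl11b*, and from 2 to 3 months by 2.93 for *Drd2* and 1.64 for *Bcl11b*. Groups of 3 libraries are too small to be tested for single outlying samples.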

How the results depend on the processing

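Of 738 alternative values for the members with an unadjusted p under 0.05, leaving aside *Emx1* in Cb, 734 kept their direction and side of the threshold, 4 passed it newly, 0 lost it and 0 changed sign. The 738 values include the comparisons of F/M with Cb in controls, those of *Emx1* among them. Their direction follows from the choice of the members, so this count says less about the genotype differences. For the members with a higher p and for *Emx1* in Cb, 92 of 1650 alternative values changed sign and 2, both of *Emx1*, passed newly. In F/M at 2 months 1 member, *Neurod6*, was called with no fold minimum. For the change from 1 to 2 months in F/M, DESeq2 and the fit with no filter each called 1 member, *Neurod6*, at -0.52 (adjusted p = 0.0604) and -0.55 (adjusted p = 0.073). For the change from 1 to 3 months in Cb, the fit with no filter called 1 member, *Emx1*, which has 0 to 6 reads per library, and leaving out 1 library at a time gave 0 to 1, the 1 without *Tpp1*-/- replicate 1 of 3 months. For the change from 1 to 2 months in Cb, leaving out 1 library gave 2 to 3 members, since *Camk2a* passed without *Tpp1*-/- replicate 1 of 1 month (-0.48, adjusted p = 0.0366), and with library totals *Camk2a* was at -0.42 (adjusted p = 0.0647). The cause was not tested.

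Same-numbered libraries correlated in their deviations from the group means at 0.0658 to 0.214, -0.0415 to 0.024 and 0.0304 to 0.0985 between genotypes in F/M at 1, 2 and 3 months and at -0.0855 to 0.229, -0.037 to 0.164 and -0.0696 to 0.0846 in Cb. Between F/M and Cb they correlated at 0.124 to 0.198, -0.0305 to 0.0128 and -0.0395 to -0.0322 in controls and at 0.0947 to 0.161, 0.058 to 0.0988 and -0.0179 to 0.0757 in *Tpp1*-/- mice. All 3 pairs were over 0.1 in 1 of 12 comparisons, F/M against Cb in controls of 1 month, and the labels do not say whether a number marks one mouse in both regions. With a replicate block on the number across regions 8 members were called between F/M and Cb in controls at each age, as without it. With a replicate block 2 members were called between genotypes in Cb at 2 months, as without it. For the difference of the genotype effect between regions at 2 months the count was 4, also as without it. No other count of called members changed. Depth limits *Emx1*, *Tbr1* and *Drd1* in Cb.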
